A study of Homo sapiens with 32 samples.

Results

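The CCR4-NOT deadenylase subunits are described here, 10 genes picked by name and by no rule on measured values, though with earlier results of these data known: CNOT1, CNOT2, CNOT3, CNOT6, CNOT6L, CNOT7, CNOT8, CNOT9, CNOT10 and CNOT11. All 10 were found among the 60662 gene IDs counted in every library, and all 10 passed the filter on low counts in each experiment. The 32 libraries, from 3 experiments, were made from poly(A) RNA of HEK293T, an established line of human kidney origin in which SV40 large T antigen is expressed. In the knockdown experiment, 12 libraries labelled WT or siYTHDF2 had DMSO or STM2457 for 6 h, 3 libraries in each of 4 groups. In the 9 h experiment, 4 WT libraries had DMSO and 4 had STM2457. The emetine experiment crossed STM2457 (6 h) with emetine (its last 2 h), DMSO standing in for either, again with 3 libraries in each of 4 groups. STM2457, an inhibitor of the m6A methyltransferase METTL3, was given at 20 µM in 0.2% DMSO, siRNA at 20 nM and emetine, which stops translation elongation, at 1.8 µM. Every control library therefore also had DMSO. The labels do not say whether WT libraries got the non-targeting siRNA that the protocol names, so an effect of transfection and of YTHDF2 loss cannot be told apart. HEK293T is 1 cell line, and whether replicates came from separate cultures is not labelled: the p-values reflect the spread among these libraries, which may be technical. The comparisons ask how subunit mRNAs stood when m6A was depleted, when the reader YTHDF2 was knocked down, and when translation was stopped.

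CCR4-NOT shortens the poly(A) tails of mRNAs, which starts the decay of most of them in animal cells. CNOT1 is the scaffold that the other subunits bind. CNOT6 or CNOT6L supplies an exonuclease of the EEP family, CNOT7 or CNOT8 one of the DEDD family, and within each pair the members replace each other. CNOT2 and CNOT3 form the NOT module at the C-terminal end of CNOT1, CNOT9 binds tryptophan-rich and other recruiter peptides, and CNOT10 and CNOT11 form a module at the N-terminal end. YTHDF2, which binds m6A, brings mRNAs to the complex by way of CNOT1.

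METTL3 methylates adenosine in a short context of which GGACT is a common form, so coding sequences were searched for it on the sense strand alone. The search used 1 coding transcript per gene in GENCODE 29 on GRCh38, and all 10 members were matched. Transcripts were ranked by the annotation's APPRIS tag for the principal transcript, and only then by coding length. GGACT occurred at least once in 72.15% of 19659 coding genes, with a median of 0.969 per kb. Among the members, CNOT1 held 11 matches (1.54 per kb), CNOT2, CNOT7, CNOT8 and CNOT10 held 2 each, and CNOT6 held 1. CNOT3, CNOT6L, CNOT9 and CNOT11 held 0 in their coding sequences. In 3′ UTRs the count was 7 for CNOT7, 6 for CNOT6, 2 each for CNOT2 and CNOT9, 1 each for CNOT6L and CNOT8, and 0 for the others. The windows below are some of the coding stretches of members whose levels changed in the comparisons that follow. Those of CNOT1 and CNOT7, whose levels also changed, are not printed. Each window lies inside 1 exon and is written 5′ to 3′ in the sense of the mRNA, with GGACT in capitals.
CNOT2, chr12:70337418-70337438, plus strand: caatcccaGGACTtctcaata
CNOT6, chr5:180565903-180565923, plus strand: ctaaactgGGACTacaggaaa
CNOT8, chr5:154870699-154870719, plus strand: ctaactcaGGACTacagtttc
CNOT8, chr5:154875374-154875394, plus strand: gaggatgtGGACTctgcccag
CNOT10, chr3:32764722-32764742, plus strand: ctctgccaGGACTgtgatgct
A match is a description of letters, and whether any of these adenosines was methylated in these cells was not measured.

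The targeted mRNA was checked in every library of the knockdown experiment. YTHDF2 stood at 179, 182 and 174 CPM (gene counts relative to the TMM-scaled library total) in DMSO, 44.5, 43.1 and 42.2 with siRNA, 582, 616 and 656 with STM2457, and 76.2, 74.0 and 80.4 with both. No library of 1 group overlapped another, so the siRNA labels fit, and YTHDF2 mRNA was highest under STM2457. Libraries of the knockdown experiment were deepest, with at least 37694945 and at most 42303951 gene counts, and all others held between 21781514 and 34677704. Of 10 HEK293T markers, all were counted in all 32 libraries, with sums of 1073 to 1639 CPM, lowest with siRNA and, within the emetine experiment, with emetine. Under TMM, emetine without STM2457 left 8 of the 10 lower and 1 higher, beside 28.3% and 33.9% of 15817 genes. Under STM2457 it left 6 lower and 1 higher, beside 29.4% and 30.4%. The sums of 6 blood markers (1.73 to 3.18 CPM) and 4 hepatocyte markers (0 to 0.436 CPM) were low, and PTPRC, HBB and TTR had counts in 1 library each. Sums of 5 fibroblast markers ran from 18.1 to 29.3 CPM, mostly COL1A1, and those of 4 keratin epithelium markers from 20.0 to 40.4 CPM, nearly all KRT10. Of the groups, STM2457 in the knockdown experiment had the highest keratin sums, 29.9 to 40.4 CPM, and its replicate 3 stood apart, with a mean correlation to its group of 0.992 where the other libraries had 0.9946 or more. The part of that library or of those markers in the results was not tested, and results that rest on the library are given without it too. In bulk RNA, a smaller share of cells with a transcript and less of it per cell cannot be told apart.

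All folds below are relative to the bulk of genes, because TMM assumes that most genes do not change. Scaling to 82 ribosomal protein genes, or to ERCC spike-ins where libraries held them, moved the median log2 change of all genes under STM2457 at 6 h by −0.26 and −0.37 in the knockdown experiment, and by −0.17 and −0.13 in the emetine experiment. With siRNA present, the STM2457 shifts were −0.18 and −0.31. For emetine they were 0.44 and 0.49 without STM2457 and 0.50 and 0.53 under it, for STM2457 at 9 h 0.18 by ribosomal protein genes, which is the only other scaling there, and with emetine present −0.11 by ribosomal protein genes. Members whose direction turns under these scalings are named beside each result.

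Per exon length, the scaffold CNOT1 was the most abundant member and CNOT6L the least in each of the 10 groups. In DMSO of the knockdown experiment, CNOT1 stood at 159 ± 13.96 TPM and CNOT11 at 115 ± 7.63 TPM (SD, n = 3), without overlap. CNOT6 (79.8 ± 3.72), CNOT9 (75.9 ± 5.85) and CNOT8 (70.4 ± 5.13 TPM) followed, and each overlapped its neighbour in this order. CNOT10 came next at 58.1 ± 4.88 TPM, then CNOT7 (44.1 ± 2.52) and CNOT3 (43.5 ± 3.52 TPM), which overlapped each other. CNOT2 (17.2 ± 1.59) and CNOT6L (14.2 ± 0.780 TPM) were lowest and did not overlap. By this measure CNOT6 was the more abundant mRNA of the EEP nucleases and CNOT8 of the DEDD nucleases. The length used covers all annotated exons of a gene, 13993 bases for CNOT2 and 6586 for CNOT6. The transcripts searched above had 1623 coding and 1077 3′ UTR bases for CNOT2, and 1674 and 4205 for CNOT6. The order of the members thus depends on the length used, and the order per transcript length was not tested. Over all groups the group means spanned 40.6 to 46.9 TPM for CNOT7, the narrowest relative range, and 30.2 to 89.3 TPM for CNOT3. Levels in different experiments were scaled apart and are not compared by a test.

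**Figure D1:**
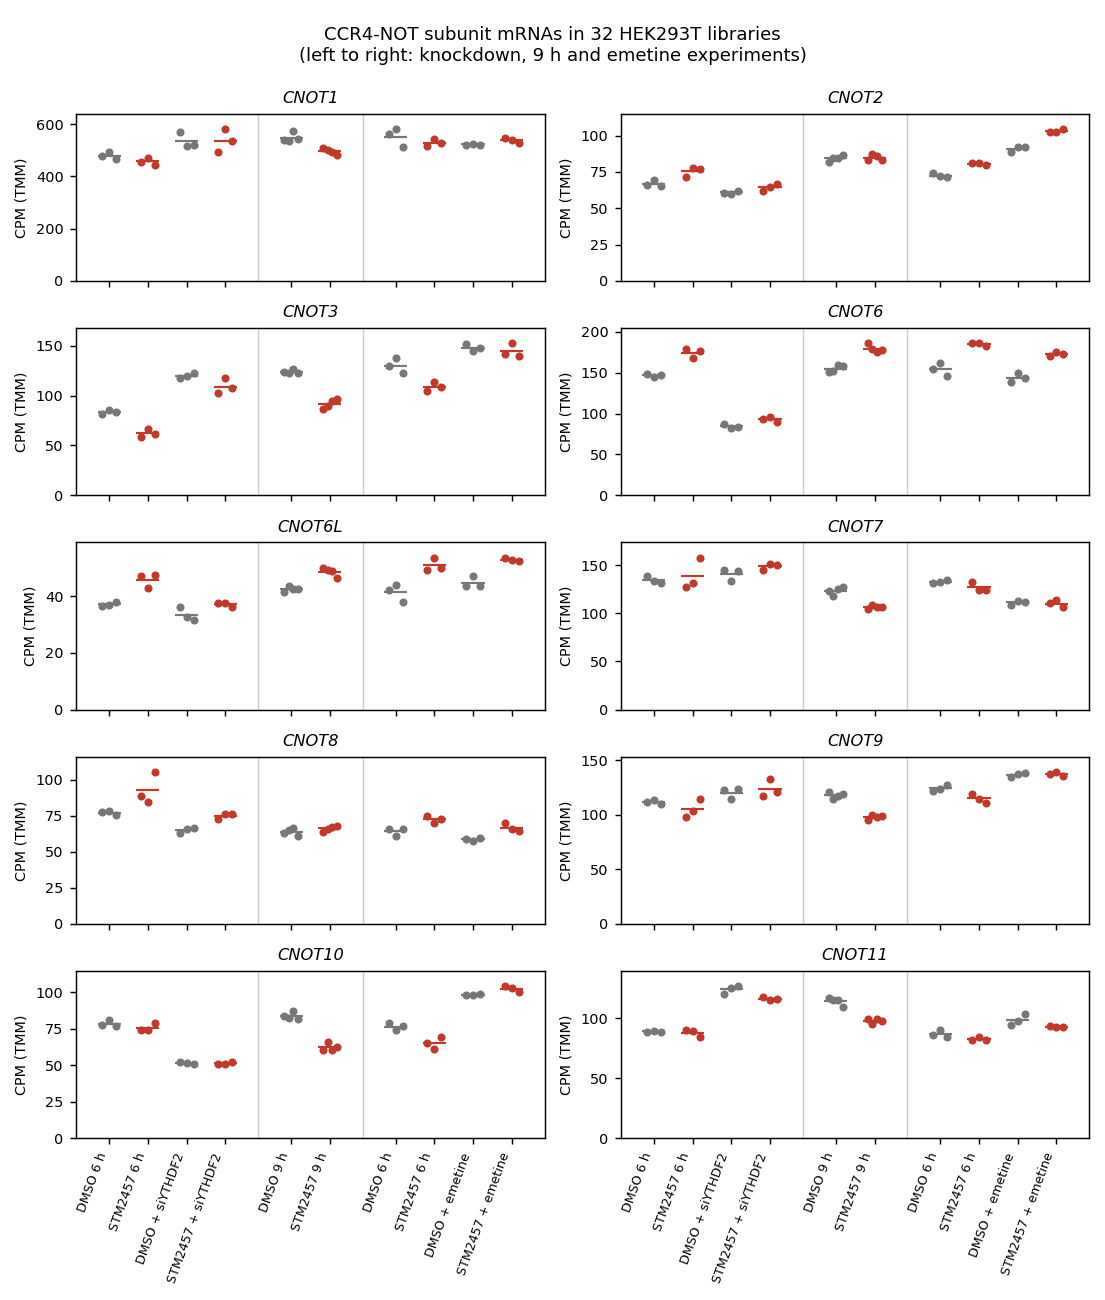
CPM after TMM scaling (y axis, from 0) of the 10 subunit mRNAs in each of the 32 libraries, with 1 point per library, a bar at the group mean, DMSO groups in grey and STM2457 groups in red. CNOT6 and CNOT10 sit lower and CNOT3 and CNOT11 higher in all 6 siRNA libraries than in the WT libraries of the same drug, and CNOT3 is lower with STM2457 in every experiment without siRNA or emetine.

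STM2457 for 6 h lowered CNOT3 and raised CNOT2, CNOT6, CNOT6L and CNOT8 relative to the bulk of genes. These 4 higher and 1 lower of 10 members stand beside 22.9% of 16662 genes tested that were higher and 22.1% that were lower (edgeR adjusted p under 0.05). The members' median log2 change was 0.01, and that of all genes −0.02. With 10 members, such counts describe the members and set the group apart from other genes in none of the comparisons.

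In the NOT module, CNOT3 (ENSG00000088038.19, chromosome 19, 54137717 to 54155708, plus strand, GRCh38) stood at 81.5, 85.3 and 83.1 CPM in DMSO and at 58.8, 66.9 and 61.3 CPM with STM2457. All 3 treated libraries were below all 3 controls, a log2 change of −0.42 (SE 0.06, edgeR adjusted p = 1.05e-05), and the fall was larger with ribosomal protein scaling (−0.68) and spike-in scaling (−0.77). Its partner CNOT2 (ENSG00000111596.12, chromosome 12, 70242994 to 70354993, plus strand) moved the other way, from 65.7, 69.3 and 65.4 to 71.8, 77.9 and 76.9 CPM, a rise of 0.18 (SE 0.05, edgeR adjusted p = 0.00704). That rise turned to −0.08 (ribosomal protein genes) and −0.18 (spike-ins), and its adjusted p was 0.052 without DMSO replicate 1.

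Both EEP nucleases rose. CNOT6 (ENSG00000113300.12, chromosome 5, 180494412 to 180578405, plus strand) went from 148, 144 and 147 to 179, 168 and 177 CPM, and CNOT6L (ENSG00000138767.13, chromosome 4, 77713387 to 77819615, minus strand) from 36.7, 36.9 and 38.0 to 47.0, 43.0 and 47.5 CPM. No treated library overlapped a control, with log2 changes of 0.25 (SE 0.05, edgeR adjusted p = 0.000244) and 0.30 (SE 0.06, edgeR adjusted p = 0.000283). Under ribosomal protein scaling the changes were −0.01 and 0.04 and under spike-in scaling −0.12 and −0.07, none of them past the threshold, so both rises hold only relative to the bulk of genes.

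Of the DEDD nucleases, CNOT8 (ENSG00000155508.13, chromosome 5, 154857553 to 154876793, plus strand) went from 77.7, 78.1 and 75.5 to 88.7, 84.8 and 105 CPM. Its rise of 0.27 (SE 0.06, edgeR adjusted p = 0.00202) leaned on the library that stood apart: without replicate 3 of STM2457 it was 0.16 (edgeR adjusted p = 0.00815), and it vanished at −0.0016 with ribosomal protein scaling and turned to −0.11 with spike-in scaling. CNOT7 (ENSG00000198791.12) stood at 138, 133 and 132 CPM in DMSO and at 128, 131 and 158 with STM2457, with the high value again in replicate 3, and its change of 0.05 missed the threshold (edgeR adjusted p = 0.592).

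The remaining members did not pass the threshold at 6 h in this experiment. CNOT1 (ENSG00000125107.18, chromosome 16, 58519951 to 58629886, minus strand) stood at −0.07, CNOT9 (ENSG00000144580.13, chromosome 2, 218568580 to 218597080, plus strand) at −0.09, CNOT10 (ENSG00000182973.18, chromosome 3, 32685145 to 32773875, plus strand) at −0.06 and CNOT11 (ENSG00000158435.8, chromosome 2, 101252802 to 101270316, plus strand) at −0.02 (SE 0.05 to 0.06). Without replicate 3 of STM2457, CNOT9 passed at −0.16 (edgeR adjusted p = 0.0176). With ribosomal protein scaling CNOT1, CNOT7, CNOT9, CNOT10 and CNOT11 were all lower (−0.32, −0.23, −0.35, −0.32 and −0.27), and with spike-in scaling CNOT3 alone of the 10 passed. Of all genes 1257 were higher and 7283 lower with the first scaling, and 398 and 5023 with the second.

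The same 6 h treatment in the emetine experiment, on libraries of its own, gave 4 higher and 3 lower members, beside 26.0% and 21.9% of 15817 genes. CNOT3 went from 129.7, 138 and 122 to 104, 113 and 109 CPM, a fall without overlap (log2 change −0.25, SE 0.04, edgeR adjusted p = 4.88e-06). CNOT6 went from 155, 162 and 146 to 186, 186 and 182 CPM (0.26, SE 0.04, edgeR adjusted p = 4.83e-07). CNOT6L rose by 0.30, CNOT8 by 0.17 and CNOT2 by 0.15, while CNOT10 fell by 0.23 and CNOT9 by 0.11. The rises again did not pass with either other scaling, where CNOT6 was at 0.09 and 0.12, CNOT6L at 0.13 and 0.16, CNOT2 at −0.01 and 0.02, and CNOT8 at 0.00 and 0.04, and CNOT8 missed the threshold without DMSO replicate 2 (0.11, edgeR adjusted p = 0.0593). CNOT1 and CNOT11, short of the threshold at −0.06 and −0.07, passed without DMSO replicate 3 or STM2457 replicate 2, as did CNOT7 (−0.06) without DMSO replicate 1 or 2 or STM2457 replicate 1. With both other scalings 0 members were higher and 6 lower: CNOT3, CNOT9 and CNOT10, and also CNOT1 (−0.23 and −0.20), CNOT7 (−0.23 and −0.20) and CNOT11 (−0.23 and −0.20). Of all genes 2224 were higher and 6574 lower with ribosomal protein scaling, and 2092 and 4679 with spike-in scaling. When the STM2457 effects of the emetine and knockdown experiments were compared directly, 0 members were higher and 0 lower, beside 0.239% and 0.604% of 16720 genes. CNOT10 had the lowest unadjusted p of them, 0.00489, and 1 member was under 0.05 before adjustment. DESeq2 gave 0 members as well.

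At 9 h, STM2457 lowered 6 members and raised 2, beside 32.5% of 15834 genes lower and 32.2% higher. The members' median was −0.18 and that of all genes −0.00. Under TMM the fallen members were CNOT1, CNOT3, CNOT7, CNOT9, CNOT10 and CNOT11, with none of the EEP nucleases among them. CNOT3 stood at 123, 123, 127 and 123 CPM in DMSO and 86.7, 89.5, 94.4 and 96.4 with STM2457, without overlap (log2 change −0.43, SE 0.03, edgeR adjusted p = 4.03e-11). CNOT10 went from 83.6, 81.9, 87.3 and 81.8 to 60.3, 66.0, 60.7 and 62.6 CPM, also without overlap (−0.42, SE 0.04, edgeR adjusted p = 2.80e-10). With ribosomal protein scaling these falls were −0.26 and −0.24 and still passed.

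CNOT9 went from 121, 114, 117 and 119 to 95.03, 99.2, 97.9 and 98.4 CPM (−0.27, SE 0.03, edgeR adjusted p = 3.32e-08), and with ribosomal protein scaling it fell by 0.09 (edgeR adjusted p = 0.0341). CNOT7 fell by 0.21, CNOT11 by 0.22 and the scaffold CNOT1 by 0.14 (edgeR adjusted p = 1.80e-06, 1.48e-06 and 0.000391). With ribosomal protein scaling these 3 did not pass (−0.04, −0.04 and 0.04). The EEP nucleases rose at 9 h as at 6 h: CNOT6 from 151, 152, 159 and 158 to 186, 179, 175 and 177 CPM, a change of 0.21 (SE 0.03, edgeR adjusted p = 1.42e-06), and CNOT6L by 0.19 (SE 0.04, edgeR adjusted p = 8.07e-05), and both rises were larger with ribosomal protein scaling (0.39 and 0.37). CNOT2 and CNOT8 did not pass under TMM, at 0.01 and 0.05, but did with ribosomal protein scaling (0.19 and 0.23), which left 4 members higher and 3 lower where 7630 genes were higher and 2350 lower.

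A direct comparison of the STM2457 effects at 9 h and 6 h, in which time and experiment cannot be told apart, gave 6 lower and 0 higher members, beside 23.3% and 13.8% of 16720 genes. The difference was −0.40 for CNOT10 (SE 0.07, edgeR adjusted p = 2.23e-05), −0.30 for CNOT7, −0.26 for CNOT8, −0.24 for CNOT11, −0.22 for CNOT9 and −0.21 for CNOT2. Without replicate 3 of the 6 h STM2457 libraries, CNOT8 was at −0.15 and missed the threshold (edgeR adjusted p = 0.0604), CNOT7 was at −0.18 and CNOT9 at −0.14. All 10 differences were positive with ribosomal protein scaling (a shift of 0.48 in the median gene), from 0.08 for CNOT10 to 0.42 for CNOT3, and 8 of them passed as higher, all but CNOT10 and CNOT11, where 10061 genes were higher and 92 lower. CNOT3 and CNOT6 did not differ past the threshold between the times under TMM, at −0.05 and −0.08 (SE 0.07 and 0.06).

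**Figure D2:**
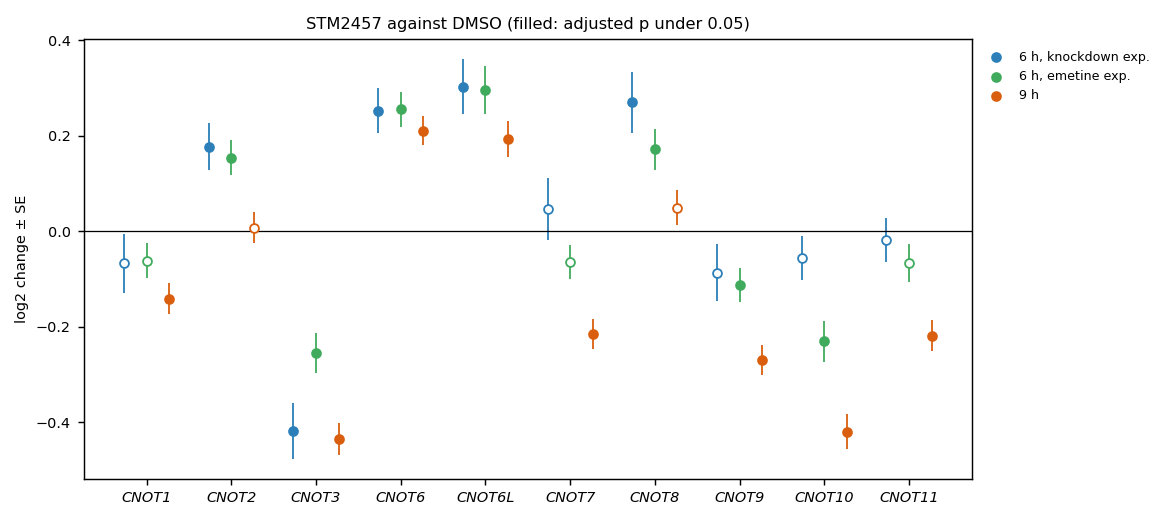
Log2 change with STM2457 against DMSO (y axis, with standard error) for each subunit in the knockdown experiment at 6 h, the emetine experiment at 6 h without emetine, and at 9 h, under TMM scaling, with filled points for adjusted p under 0.05. CNOT3 is below 0 and CNOT6 and CNOT6L above 0 in all 3 under TMM (for the knockdown experiment CNOT6 is at −0.01 and −0.12 in the other scalings), while CNOT7, CNOT9, CNOT10 and CNOT11 lie lowest at 9 h.

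YTHDF2 siRNA changed 8 of the 10 members in DMSO, from both ends of the scaffold. In DMSO, CNOT6 and CNOT10 fell to 0.575 and 0.658 of the level without siRNA, and CNOT3 and CNOT11 rose 1.44-fold and 1.39-fold. Of the 8, 3 members were higher and 5 lower, beside 33.1% and 29.3% of 16662 genes, and the members' median was −0.03 against 0.02 for all genes. Of the members only CNOT7 and CNOT9 missed the threshold.

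Both EEP nucleases fell, CNOT6 by more. CNOT6 went from 148, 144 and 147 CPM to 87.2, 82.2 and 83.4 with siRNA, far below every WT library (log2 change −0.80, SE 0.05, edgeR adjusted p = 7.76e-11). CNOT6L stood at 36.1, 32.7 and 31.7 CPM against 36.7, 36.9 and 38.0, a fall of 0.15 (SE 0.06, edgeR adjusted p = 0.0321) that missed the threshold without DMSO replicate 3 or siRNA replicate 2 or 3 (edgeR adjusted p of 0.051, 0.0531 and 0.122). Among the DEDD nucleases, CNOT8 went from 77.7, 78.1 and 75.5 to 63.1, 65.6 and 66.8 CPM (−0.24, SE 0.06, edgeR adjusted p = 0.00305), and CNOT7 was at 0.06.

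The N-terminal module split. CNOT10 went from 77.8, 80.6 and 77.0 to 52.4, 51.6 and 50.9 CPM (−0.60, SE 0.05, edgeR adjusted p = 2.35e-09), and CNOT11 from 88.8, 89.6 and 88.4 to 120.2, 125 and 126 CPM (0.48, SE 0.05, edgeR adjusted p = 4.22e-08). Neither overlapped its controls. The NOT module split as well: CNOT3 rose from 81.5, 85.3 and 83.1 to 118, 119.9 and 123 CPM (0.53, SE 0.06, edgeR adjusted p = 2.21e-07), and CNOT2 fell by 0.13 (SE 0.05, edgeR adjusted p = 0.0292). The CNOT2 fall missed the threshold without DMSO replicate 2 (edgeR adjusted p = 0.0555). CNOT1, at 571, 516 and 521 CPM against 478, 494 and 465, rose by 0.16 (edgeR adjusted p = 0.0285), a call that ended when any of 5 of the 6 libraries was left out, all but siRNA replicate 3. The changes of CNOT3, CNOT6, CNOT10 and CNOT11 passed with ribosomal protein scaling (0.54, −0.79, −0.59 and 0.49) and with spike-in scaling (0.55, −0.78, −0.58 and 0.50). CNOT8 passed with the first (−0.23) and missed with the second (−0.22), and CNOT1, CNOT2 and CNOT6L missed with both.

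Under STM2457 the siRNA gave 4 higher and 5 lower members, beside 29.8% and 30.1% of 16662 genes. CNOT6 went from 179, 168 and 177 to 93.7, 96.3 and 89.8 CPM (−0.90, SE 0.05, edgeR adjusted p = 1.75e-11) and CNOT3 from 58.8, 66.9 and 61.3 to 102, 118 and 108 CPM (0.81, SE 0.06, edgeR adjusted p = 1.14e-09). CNOT10 fell by 0.56, CNOT8 by 0.31, CNOT6L by 0.30 and CNOT2 by 0.23, while CNOT11 rose by 0.40 and CNOT1 and CNOT9 by 0.23 each. CNOT7 stood at 0.10 and, without STM2457 replicate 3, at 0.19, where it passed (edgeR adjusted p = 0.00141). With ribosomal protein scaling CNOT7 passed as well (0.20) and CNOT2 and CNOT6L missed, 5 higher and 3 lower where 4892 genes were higher and 3345 lower. With spike-in scaling the calls of CNOT3 (0.88) and CNOT6 (−0.82) remained and the others ended, where 2599 genes were higher and 1851 lower.

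**Figure D3:**
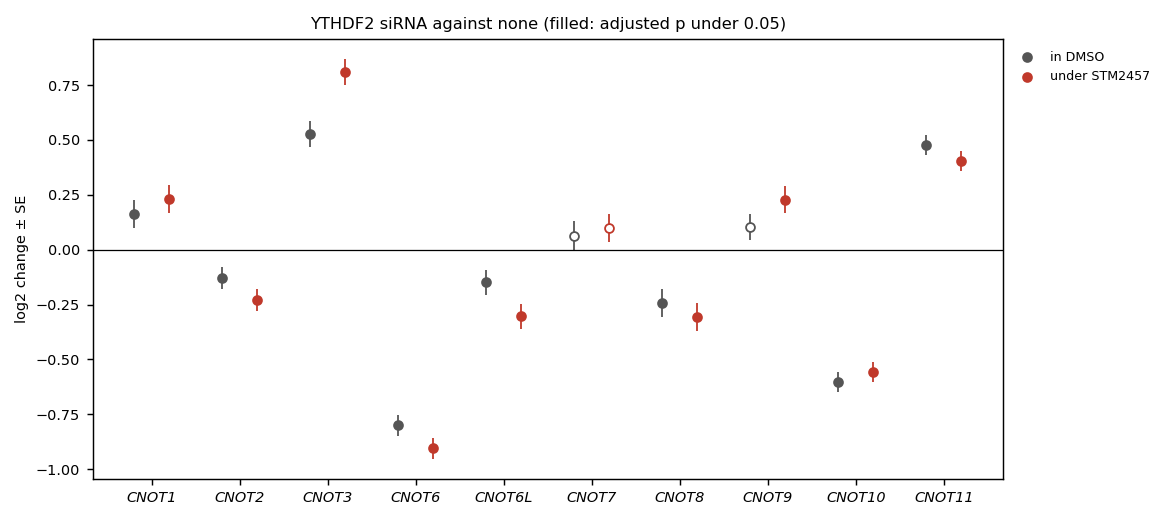
Log2 change with YTHDF2 siRNA against none (y axis, with standard error) for each subunit, in DMSO (grey) and under STM2457 (red), with filled points for adjusted p under 0.05. CNOT6 and CNOT10 lie at −0.56 or below and CNOT3 and CNOT11 at 0.40 or above in both settings, and CNOT7 near 0.

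With siRNA present, STM2457 left 2 members higher and 0 lower, beside 15.5% and 15.4% of 16662 genes. CNOT6 changed from 87.2, 82.2 and 83.4 to 93.7, 96.3 and 89.8 CPM (0.15, SE 0.05, edgeR adjusted p = 0.0262) and CNOT8 from 63.1, 65.6 and 66.8 to 73.1, 76.1 and 76.2 CPM (0.21, SE 0.06, edgeR adjusted p = 0.0209). Treated and control libraries did not overlap, yet each call ended in 4 of 6 leave-one-out fits (CNOT6 without siRNA replicate 2 or 3 in DMSO, or 1 or 2 under STM2457; CNOT8 without 1 or 2 in DMSO, or 2 or 3 under STM2457). CNOT6 turned to −0.04 with ribosomal protein and −0.17 with spike-in scaling, and CNOT8 to −0.10 with spike-in scaling. CNOT3 stood at −0.14 (SE 0.06, edgeR adjusted p = 0.0774), passed without replicate 2 of both agents (−0.20, edgeR adjusted p = 0.0214), and was −0.32 with ribosomal protein scaling (edgeR adjusted p = 0.0196). In that scaling CNOT11 passed too (−0.28, edgeR adjusted p = 0.043), so that 0 members were higher and 2 lower, where 712 genes were higher and 4096 lower. CNOT6L, at 0.15, passed without siRNA replicate 1 in DMSO (0.20, edgeR adjusted p = 0.0221).

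The difference between those settings was tested by the interaction of STM2457 with siRNA, in which 1 member was higher and 0 lower, beside 1.78% and 6.93% of 16662 genes. For CNOT3 it was 0.28 (SE 0.08, edgeR adjusted p = 0.0373), so that STM2457 lowered CNOT3 by less where YTHDF2 was low. The call ended in 9 of 12 leave-one-out fits, remaining only without STM2457 replicate 2 or 3 or replicate 1 with both agents, and in both other scalings, where the estimate was 0.35 and 0.33. For CNOT6, CNOT6L and CNOT8 the interaction was −0.11, −0.15 and −0.07 (SE 0.07, 0.08 and 0.09), which did not pass.

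Emetine without STM2457 raised CNOT2, CNOT3, CNOT9, CNOT10 and CNOT11 and lowered 3 of the 4 catalytic members, CNOT6, CNOT7 and CNOT8, under TMM, 5 higher and 3 lower beside 33.9% and 28.3% of 15817 genes. With ribosomal protein or spike-in scaling all 10 members were higher, as were 11485 and 11558 of the 15817 genes, so the 3 falls are relative to the bulk of genes. CNOT10 stood at 78.5, 74.2 and 76.6 CPM in DMSO and at 98.0, 98.2 and 98.6 with emetine (log2 change 0.36, SE 0.04, edgeR adjusted p = 1.38e-09). CNOT2 went from 74.0, 72.1 and 71.2 to 88.5, 91.96 and 92.4 CPM (0.33, SE 0.04, edgeR adjusted p = 1.35e-09). Neither overlapped, and both were at 0.77 or more in the other scalings.

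CNOT7 went from 131, 132 and 135 to 109, 113 and 112 CPM with emetine, again without overlap, a TMM change of −0.26 (SE 0.04, edgeR adjusted p = 1.32e-07) that read 0.18 and 0.23 with ribosomal protein and spike-in scaling. CNOT8 at −0.13 (SE 0.04, edgeR adjusted p = 0.00748) read 0.31 and 0.35, and CNOT6 at −0.10 (SE 0.04, edgeR adjusted p = 0.0178) read 0.34 and 0.38. CNOT7 was thus the member with the smallest value in all 3 scalings and CNOT10 that with the largest (0.80 and 0.85 in the other scalings). The CNOT6 call ended without emetine replicate 1 (edgeR adjusted p = 0.119), and that of CNOT9, at 0.14, without DMSO replicate 1 (edgeR adjusted p = 0.0576). CNOT3 and CNOT11 each rose by 0.19 (edgeR adjusted p = 0.000167 and 0.000115), while CNOT1 at −0.08 and CNOT6L at 0.11 did not pass. CNOT1 passed without DMSO replicate 1 or 3 (−0.10 and −0.15).

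**Figure D4:**
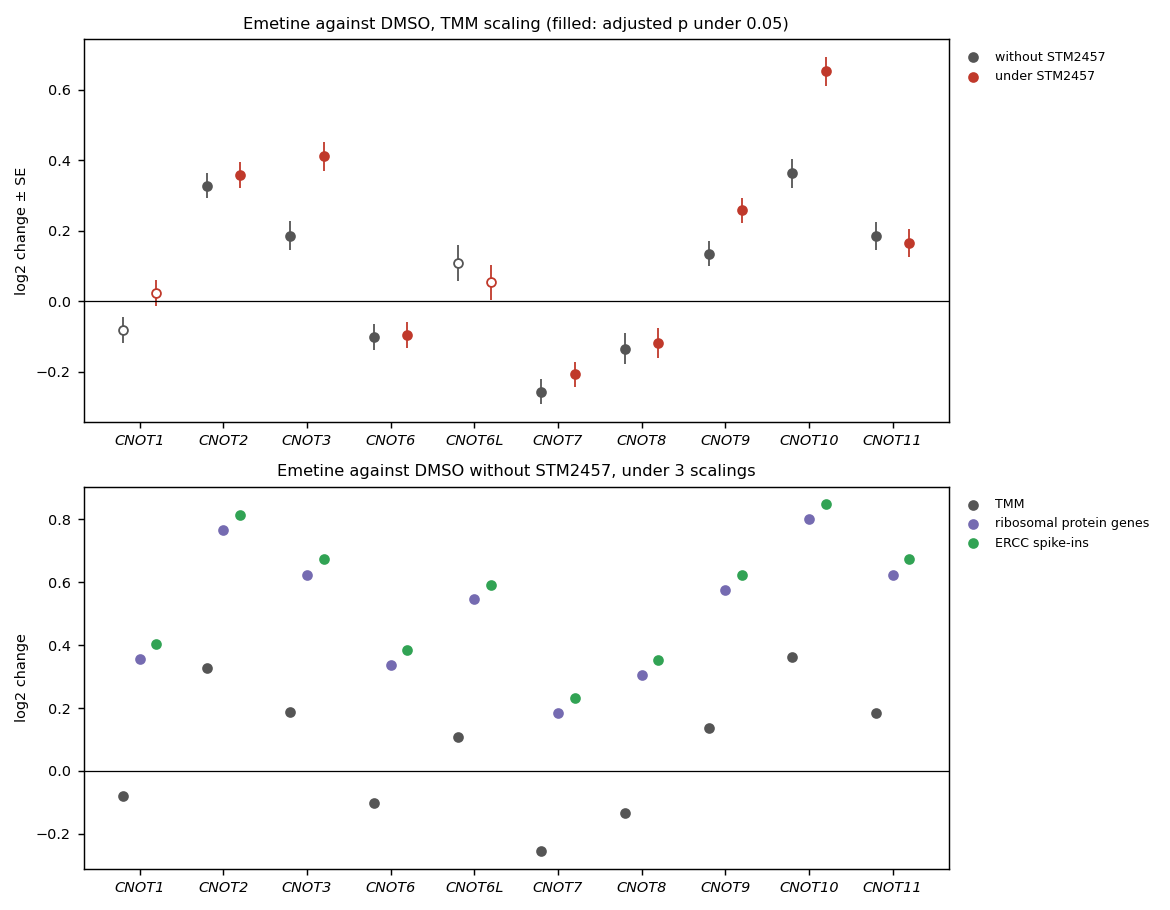
Upper panel: log2 change with emetine against DMSO (y axis, with standard error) for each subunit, without STM2457 (grey) and under it (red), filled where adjusted p is under 0.05. Lower panel: the change without STM2457 under TMM, ribosomal protein and spike-in scaling, where the 4 values below 0 under TMM (CNOT1, CNOT6, CNOT7 and CNOT8) stand above 0 in the other scalings.

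Under STM2457, emetine gave 5 higher and 3 lower members, beside 30.4% and 29.4% of 15817 genes. CNOT10 went from 65.0, 61.0 and 69.4 to 104, 103 and 99.9 CPM (0.65, SE 0.04, edgeR adjusted p = 2.75e-15), and CNOT3 from 104, 113 and 109 to 141, 153 and 140.3 CPM (0.41, SE 0.04, edgeR adjusted p = 2.42e-10). CNOT2 rose by 0.36, CNOT9 by 0.26 and CNOT11 by 0.17. CNOT7 fell by 0.21, CNOT8 by 0.12 and CNOT6 by 0.10, and in the other scalings all 10 members were again higher, as were 11528 and 11548 genes. The calls of CNOT6 and CNOT8 ended without emetine replicate 1 or 3, and 2 or 3, respectively.

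With emetine present, STM2457 gave 4 higher and 0 lower members, beside 21.6% and 16.2% of 15817 genes. CNOT2 went from 88.5, 91.96 and 92.4 to 103, 103 and 105 CPM (0.18), CNOT6 from 139, 149 and 144 to 169.8, 176 and 173 (0.26), CNOT6L from 43.6, 47.0 and 43.6 to 53.6, 52.8 and 52.3 (0.24) and CNOT8 from 58.7, 57.8 and 59.5 to 70.1, 65.8 and 64.3 (0.19; edgeR adjusted p of 7.60e-05, 5.04e-07, 0.000171 and 0.000694). None of the 4 overlapped its controls. They were positive in both other scalings too, though of these only CNOT6 with ribosomal protein scaling passed (0.16). In that scaling CNOT7 and CNOT11 passed as lower (−0.12 and −0.19), 1 member higher and 2 lower where 1660 of 15817 genes were higher and 4374 lower. With spike-in scaling 0 members passed, where 1351 genes were higher and 2581 lower. CNOT3 stood at 151, 144 and 148 CPM without and 141, 153 and 140.3 with STM2457, overlapping, at −0.03, and CNOT10 at 0.06.

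The interaction of STM2457 with emetine passed for 2 members, both higher, and for 0 lower, beside 6.73% and 11% of 15817 genes. It was 0.29 for CNOT10 (SE 0.06, edgeR adjusted p = 0.000363) and 0.22 for CNOT3 (SE 0.06, edgeR adjusted p = 0.0057): both fell with STM2457 when emetine was absent, and their values with emetine were near 0. Ribosomal protein scaling kept both (0.35 and 0.28) and added CNOT9 (0.18), and spike-in scaling gave 0.34 and 0.27 without a call. CNOT9, at 0.12 (edgeR adjusted p = 0.0853), passed without replicate 1 of DMSO or of STM2457, and CNOT1, at 0.10, without DMSO replicate 3. For CNOT2, CNOT6, CNOT6L and CNOT8, which rose with STM2457 in both settings, the interaction lay between −0.05 and 0.03.

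Ratios between members within a library do not depend on the scaling, though their size depends on the exon lengths used. Ratios per exon length were formed for 4 pairs, chosen after their values were seen, and compared in 9 comparisons of groups by exact two-sided permutation tests on the log2 ratio. With 3 libraries against 3 the smallest possible p is 0.1, and with 4 against 4 it is 0.0286, so after adjustment over the 36 tests none was below 0.138.

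For the EEP nucleases, CNOT6 over CNOT6L was 5.61 in DMSO (5.51 to 5.75 over libraries) and 3.58 with siRNA (3.43 to 3.74), and 5.42 and 3.57 under STM2457. STM2457 alone moved it little, with overlap in all 5 settings. For the DEDD nucleases, CNOT7 over CNOT8 was lower with STM2457 in all 5 settings and without overlap in each: 0.536 against 0.626 at 6 h, 0.577 against 0.692 at 9 h, 0.629 against 0.742 in the emetine experiment, 0.592 against 0.681 with emetine, and 0.711 against 0.774 with siRNA. At 9 h the exact permutation p was 0.0286, the smallest that the design allows, as it was for CNOT3 over CNOT2 and CNOT11 over CNOT10. Because the pairs were picked with their values in view, these p-values only describe the separation of the libraries.

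In the NOT module, CNOT3 over CNOT2 was likewise lower with STM2457 without overlap in all 5 settings, from 2.54 to 1.68 at 6 h and from 2.99 to 2.20 at 9 h, and higher with siRNA at 4.00 in DMSO and 3.44 under STM2457. In the N-terminal module, CNOT11 over CNOT10 was 1.97 in DMSO (1.93 to 2.00) and 4.17 with siRNA (3.99 to 4.32), and 2.02 and 3.94 under STM2457. With emetine the ratio was lower, 1.74 against 1.97 without STM2457 and 1.58 against 2.22 under it, in each case without overlap.

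**Figure D5:**
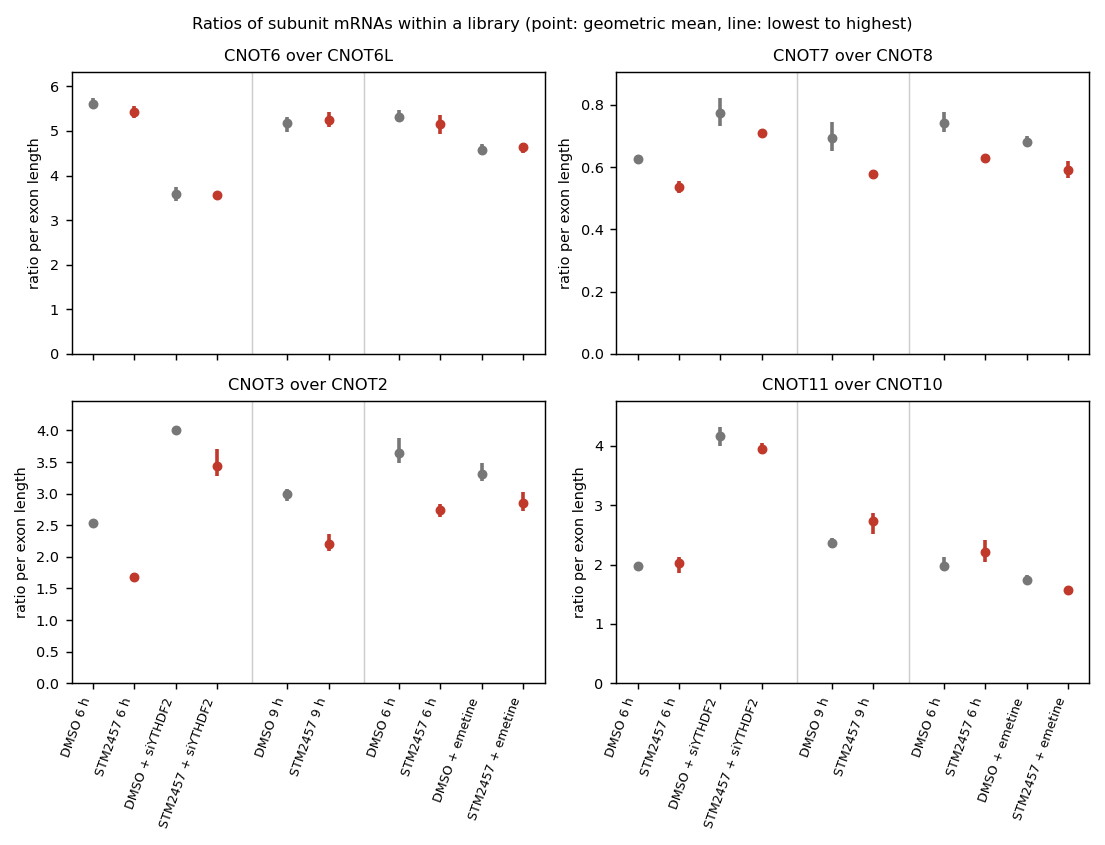
Ratios per exon length of 4 pairs of subunit mRNAs within a library (y axis, from 0), by group, with the geometric mean as a point and the lowest to highest library as a line. The siRNA groups stand apart for CNOT6 over CNOT6L (3.58 and 3.57) and CNOT11 over CNOT10 (4.17 and 3.94), and each STM2457 group lies below its DMSO group for CNOT7 over CNOT8 and CNOT3 over CNOT2.

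Over the 32 libraries, log2 CPM was set against the DMSO group of the same experiment, and these deviations were correlated as a description only, since libraries share treatments. CNOT3 went most closely with CNOT11 (Pearson r = 0.90) and CNOT9 (0.84), and CNOT2 with CNOT10 (0.79). CNOT6 went with CNOT6L (0.75) and CNOT8 (0.71) and opposite to CNOT11 (−0.90) and CNOT3 (−0.85). The scaffold CNOT1 went opposite to CNOT6 (−0.77). CNOT7 and CNOT8 had an r of 0.06. Among 9974 genes compared, the patterns most like that of CNOT1 were those of NBR1 (r = 0.93), KPNB1 (0.92), SMARCD1 (0.92) and TOMM34 (0.91), and most like that of CNOT6 were ZHX3 (0.99), SLC37A3 (0.98), RNF6 (0.98) and ENSG00000112096.18 (0.98).

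Of 8 other deadenylases, 5 were higher and 3 lower at 6 h of STM2457, with PDE12, a mitochondrial poly(A) nuclease, at 0.91 and NOCT, which was classed with the CCR4-like nucleases, at 0.95 (edgeR adjusted p = 7.43e-11 and 1.36e-09), and ANGEL1 at −0.44. Of all 16662 genes tested, 22.9% were higher and 22.1% lower. PDE12 and NOCT stayed higher with ribosomal protein scaling (0.65 and 0.69) and spike-in scaling (0.54 and 0.59), where 2 of the 8 were higher and 3 lower. Of all genes 1257 were higher and 7283 lower with ribosomal protein scaling, and 398 and 5023 with spike-in scaling. YTHDF2 siRNA in DMSO gave 4 higher and 4 lower, beside 33.1% and 29.3% of 16662 genes. ANGEL2 was at −0.68, TOE1 at 0.56, PDE12 at −0.49 and ANGEL1 at 0.48. The counts were 4 higher and 3 lower with ribosomal protein scaling, where 4635 genes were higher and 3952 lower. With spike-in scaling they were 4 and 1, where 2653 genes were higher and 2229 lower. For PDE12 the interaction of STM2457 with siRNA was −0.63 under TMM (edgeR adjusted p = 2.19e-05). With spike-in scaling none of the 8 was called in this interaction, where 0 of all genes were called. With ribosomal protein scaling 0 of the 8 were higher and 1 lower, where 9 of all genes were higher and 122 lower. Emetine raised 7 of 8 and lowered 0, beside 33.9% and 28.3% of 15817 genes. TOE1, a nuclear deadenylase of small RNAs, was at 1.44 (from 32.1 ± 1.11 to 87.0 ± 2.59 CPM, SD, n = 3). NOCT was at 0.86 and PAN2, the catalytic subunit of PAN2-PAN3, at 0.66. All 8 were higher in the other scalings, where 11485 (ribosomal protein genes) and 11558 (spike-ins) of the 15817 genes were higher too. The list's median was 0.35 with emetine beside 0.04 for all genes.

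Of 8 partners and effectors of the complex, STM2457 at 6 h raised CNOT4 (0.21), a ubiquitin ligase that binds the complex, and DDX6 (0.13), the helicase that CNOT1 binds, and lowered PATL1 (−0.27). Of 16662 genes tested, 22.9% were higher and 22.1% lower. In the other scalings CNOT4 and DDX6 were below 0 and none of the 8 was higher, where 1257 genes (ribosomal protein genes) and 398 genes (spike-ins) were higher. At 9 h 3 of 8 were higher and 2 lower, beside 32.2% and 32.5% of 15834 genes. Of these, TNKS1BP1, also known as TAB182, rose by 1.12 (from 74.2 ± 1.87 to 161 ± 8.68 CPM, SD, n = 4, edgeR adjusted p = 3.04e-18). The 9 h effect exceeded that at 6 h by 0.90 (edgeR adjusted p = 9.06e-08), in which time and experiment cannot be told apart. Emetine raised 4 and lowered 4, with CNOT4 at 0.84 and PABPC1, the main cytoplasmic poly(A)-binding protein, at −0.60 (edgeR adjusted p = 1.33e-18 and 6.67e-17). Of 15817 genes tested, 33.9% were higher and 28.3% lower with emetine. With ribosomal protein scaling 7 of the 8 were higher and 1 lower, where 11485 genes were higher and 406 lower. With spike-in scaling 7 were higher and 0 lower, where 11558 genes were higher and 227 lower. PABPC1 read below 0 in both (−0.16 and −0.11), the latter without a call.

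Of 28 listed recruiters, proteins that bring the complex to its targets, 25 were tested. At 6 h of STM2457, 13 were higher and 3 lower, beside 22.9% and 22.1% of 16662 genes. The rises were led by the m6A readers YTHDF2 (1.79), YTHDF3 (1.04) and YTHDF1 (0.85) and the antiproliferative factor TOB1 (0.62). The list's median was 0.15 beside −0.02 for all genes, and turned to −0.11 and −0.22 with ribosomal protein and spike-in scaling, where 7 were higher and 10 lower, and 3 higher and 4 lower. Over all genes 1257 were higher and 7283 lower with the first, and 398 and 5023 with the second. With siRNA in DMSO, 10 were higher and 11 lower, beside 33.1% and 29.3% of 16662 genes. YTHDF2 was at −2.04, YTHDF3 at −1.14, the sequence-specific repressor PUM2 at −0.56 and BTG1, a relative of TOB1, at 0.67. The counts were 7 higher and 8 lower with ribosomal protein scaling, where 4635 genes were higher and 3952 lower. With spike-in scaling they were 2 and 7, where 2653 genes were higher and 2229 lower. Emetine without STM2457 gave 11 higher and 5 lower, beside 33.9% and 28.3% of 15817 genes, with NANOS1 at −2.54 and BTG1 at 0.78. In both other scalings 20 were higher and 1 lower, where 11485 (ribosomal protein genes) and 11558 (spike-ins) of the 15817 genes were higher.

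The counting's use of strand is not given in the sources used here, and 7 members share exon sequence with a gene on the opposite strand in GENCODE 29: CNOT1 with SETD6 and an antisense RNA, CNOT2 with PRANCR, CNOT3 with LENG1, CNOT7 with VPS37A, CNOT8 with FAXDC2, CNOT10 with CNOT10-AS1 and CNOT11 with TBC1D8. CNOT10 also shares exon sequence with the pseudogene SUGT1P2 on its own strand. Reads of these stretches cannot be assigned with certainty. CNOT6, CNOT6L and CNOT9 have no such overlap.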

How the data were processed

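Libraries were made from poly(A)-selected RNA with a kit that keeps the strand, per the labels' protocols. Each deposited file gives the authors' raw read counts for 60662 Ensembl IDs. Subread 2.0.0, featureCounts, SAMtools 1.9, STAR 2.7.3a, Trimmomatic, cutadapt 4.0 and 1.18, FastQC 0.11.8 and the build GRCh38.p12 are named by the submitters' processing notes. Neither the annotation release nor the strand setting was given in the sources used here. Reads of 92 ERCC spike-in RNAs, found in 24 libraries, were kept out of gene totals. Symbols were found for 60306 of the IDs.

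Tests used edgeR 4.0.16 in R 4.3.3: TMM, filterByExpr by group, quasi-likelihood F tests, p-values adjusted over every gene tested (Benjamini-Hochberg), called under 0.05. Each experiment was fitted on its own, without a replicate block, and differences between experiments came from 1 fit of the 20 libraries without siRNA or emetine. TPM used union exon lengths. The fitting was tested on simulated data. No replicates agreed within sampling noise.

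Members and lists were chosen with earlier results of these data known. All members are named in each comparison, and of a list at most 4 genes past the threshold with the smallest p. For likeness, with a pseudocount of 0.5 CPM, the 4 protein coding genes with the highest r to CNOT1 and to the member with the largest change are named. Alternatives were DESeq2 1.42.0, no low-count filter, scaling to ribosomal protein genes or spike-ins, a replicate block, and leaving out each library.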

Additional observations from a re-analysis of the deposited data

Results flagged for a closer look

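Effects of STM2457 that differed between settings, by a test of the difference itself, were seen for 7 members. Where YTHDF2 siRNA was present, the log2 change of CNOT3 with STM2457 was higher by 0.28 (edgeR adjusted p = 0.0373). Where emetine was present, it was higher by 0.22 for CNOT3 (edgeR adjusted p = 0.0057) and by 0.29 for CNOT10 (edgeR adjusted p = 0.000363). Between 9 h and 6 h the effect was lower at 9 h by −0.21 for CNOT2, −0.30 for CNOT7, −0.26 for CNOT8, −0.22 for CNOT9, −0.40 for CNOT10 and −0.24 for CNOT11 (edgeR adjusted p of 0.00561, 0.00208, 0.0101, 0.00704, 2.23e-05 and 0.00114). All 3 of the first are positive in each scaling tried, but 0 of them passed with spike-in scaling. The call of CNOT3 with siRNA also ended with ribosomal protein scaling and in 9 of 12 leave-one-out fits. The 6 between 9 h and 6 h turn positive with ribosomal protein scaling. In the groups of 4 libraries, 20 sets of member values were searched for a library far from the others and 0 were found.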

How the results depend on the processing

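With spike-in scaling the members called were 1 for STM2457 at 6 h, 0 for STM2457 with siRNA, 4 for siRNA in DMSO, 2 for siRNA under STM2457, 0 for STM2457 with emetine, and 0 for both interactions. Over all genes it called 5421 for STM2457 at 6 h, 2519 for STM2457 with siRNA, 4882 and 4450 for siRNA in DMSO and under STM2457, 0 for its interaction with STM2457 (edgeR, against 1450 under TMM and 3490 at an unadjusted p under 0.05), 3932 for STM2457 with emetine and 705 for the emetine interaction. With ribosomal protein scaling 5 members were called for siRNA in DMSO, with 8587 genes in all, and 0 for its interaction, with 131 genes in all. It called 10153 genes for 9 h against 6 h, and 4 for the emetine against the knockdown experiment, where the count was 141 under TMM, 288 with no filter, 403 by DESeq2 and 57 with a replicate block. With no filter 1 member was called for STM2457 with siRNA, with 5197 genes in all.

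Ribosomal protein scaling turned the sign of members called under either scaling as follows: for STM2457 at 6 h CNOT8 (−0.0016), CNOT6 (−0.00622) and CNOT2 (−0.0831), and CNOT7 turned to a call at −0.23; with siRNA CNOT6 (−0.0373); at 9 h CNOT1 (0.0390); in the emetine experiment CNOT2 (−0.0129); for emetine CNOT8 (0.31), CNOT6 (0.34), CNOT7 (0.18) and CNOT1 (0.36); under STM2457 CNOT8 (0.38), CNOT6 (0.40) and CNOT7 (0.29). For 9 h against 6 h it gave 0.23 for CNOT11, 0.26 for CNOT9, 0.0755 for CNOT10, 0.33 for CNOT6L, 0.23 for CNOT8, 0.40 for CNOT6, 0.19 for CNOT7, 0.27 for CNOT2, 0.36 for CNOT1 and 0.42 for CNOT3. Spike-in scaling turned CNOT6L (−0.0739), CNOT8 (−0.11), CNOT6 (−0.12) and CNOT2 (−0.18) for STM2457 at 6 h, CNOT8 (−0.10) and CNOT6 (−0.17) with siRNA, CNOT8 (0.35), CNOT6 (0.38), CNOT7 (0.23) and CNOT1 (0.40) for emetine, and CNOT8 (0.42), CNOT6 (0.44) and CNOT7 (0.33) for emetine under STM2457. The cause was not tested.

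Leaving out each library gave these ranges of members called, with those of all genes in parentheses. For STM2457 they were 4 to 6 at 6 h (6472 to 7632), 0 to 2 with siRNA (4146 to 4510) and 8 to 8 at 9 h (9832 to 10064). In the emetine experiment STM2457 gave 7 to 9 (7011 to 7504), and 4 to 5 with emetine (5196 to 5319). The siRNA gave 6 to 7 (9685 to 9767), 9 to 10 under STM2457 (9174 to 10041) and 0 to 1 for their interaction (879 to 2196). Emetine gave 7 to 9 (9252 to 9499), 6 to 8 under STM2457 (8832 to 9151) and 2 to 3 for their interaction (2274 to 3142). For 9 h against 6 h the range was 5 to 7 (5350 to 6481). For the difference between experiments leaving out a library gave 0 to 0 members, with 15 to 810 genes. Correlations of the deviations of same-numbered libraries ran from −0.353 to 0.582. For siRNA under STM2457 they ran from 0.0868 to 0.582, against at most 0.190 for other pairs. In every other comparison the lowest of them was negative. With so few libraries a group, this check cannot tell whether the numbers pair the samples. The replicate block kept 127 of 130 member results and brought 3 past the threshold: CNOT3 for STM2457 with siRNA (−0.14), and CNOT6L (0.11) and CNOT1 (−0.08) for emetine. DESeq2 kept 129. No filter ended CNOT6 for STM2457 with siRNA and CNOT2 for siRNA. Each library held at least 21781514 counts, and with 3 or 4 libraries a group the spread between them limits what small changes can be told.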
